A study of Mus musculus with 4 samples.

Results

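The 8 genes Eomes, Insm1, Mfng, Gadd45g, Sstr2, Penk, Tmem158 and Lrp8 mark cortical intermediate progenitors and are not basic helix-loop-helix (bHLH) factors. They were chosen by name from the 48795 genes of the deposited table, and all 8 were found and tested. RNA was sequenced from the telencephalon, the embryonic forebrain, of C57BL/6 mouse embryos at day 14. The 2 Ctcf-null libraries came from embryos with a floxed Ctcf gene and NestinCre, a Cre recombinase driven by Nestin sequences, which are active in neural progenitors. The 2 control libraries came from embryos with the floxed Ctcf gene and no Cre. The number of floxed alleles is not given in the labels, nor are the sexes or litters. The libraries are numbered as 2 pairs. The labels do not say whether each came from its own embryo, and the p-values then cover only differences among these 4 libraries, which may be technical.

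Excitatory neurons of the cortex arise from radial glia, which divide at the ventricle, either directly or through intermediate progenitors, which divide away from the ventricle and give rise mainly to neurons. The T-box factor Eomes (Tbr2) is the defining marker of these cells, and Insm1 is a zinc finger factor that promotes their formation. The other 6 genes are enriched in them. Several of the 8 are also expressed elsewhere in the forebrain, such as Penk in striatal neurons and Insm1 and Gadd45g in progenitors of the ventral telencephalon. CTCF is a zinc finger protein that, with cohesin, anchors chromatin loops.

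Recovered depth was 43812558 and 25519331 reads in Ctcf-null 1 and 2, and 41294659 and 27619441 in control 1 and 2. The Ctcf transcript was at 38.9 and 62.0 normalized counts in the Ctcf-null libraries, against 437 and 1133 in the controls. None of the 10 excitatory neuron markers, the 12 radial glia markers or the 11 markers of the ventral telencephalon was at 0 in all libraries. The 2 pairs differed far more than the 2 genotypes, with a median absolute log2 difference of 0.84 between pairs and 0.20 between genotypes across 22158 tested genes. Tests were made within pairs because the submitters' design text describes 2 pairs.

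Sstr2 was the one marker with a large fall in Ctcf-null telencephalon, 2.97-fold lower, and it was lower in both pairs. Gadd45g, Eomes, Mfng and Lrp8 fell by small amounts, 1.17-fold to 1.30-fold, and Tmem158 was 1.92-fold lower from few reads. Insm1 and Penk did not pass the test. In limma with the pair as a block, on the authors' scaling, 6 of 8 markers fell and 0 rose, where 10.1% of all tested genes fell and 3.67% rose. In both pairs 6 of 8 were lower and 0 higher, where 42.9% of tested genes were lower and 24.5% higher in both. The markers were chosen with earlier results of these data known, so the counts are a description. The calls of Eomes, Mfng, Lrp8 and Tmem158 were lost with TMM scaling (limma adjusted p = 0.12, 0.14, 0.16 and 0.058). In edgeR with the pair block and TMM scaling, Sstr2 and Gadd45g fell (2 of 8, where 7.13% of all tested genes fell) and 0 rose (4.80%). In DESeq2 with the block, Sstr2 alone fell (1 of 8, where 2.45% of tested genes fell) and 0 rose (1.30%). Without the block, limma called 0 markers and 0.00% of all tested genes.

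**Figure D1:**
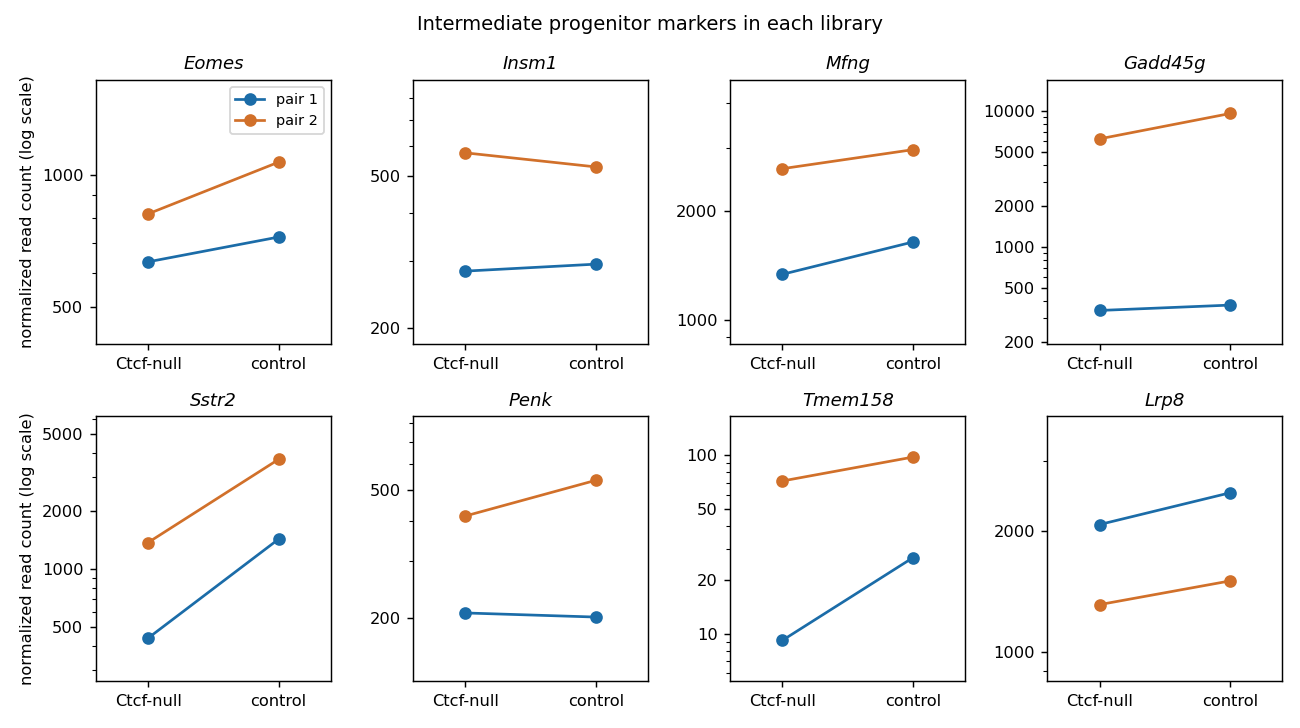
Normalized read count (log scale) of each marker in the Ctcf-null (left) and control (right) library of pair 1 (blue) and pair 2 (orange); lines join the libraries of a pair. Each panel has its own range. Sstr2 stands at 438 and 1373 in the Ctcf-null libraries, against 1430.2 and 3715 in controls, and the pairs of Gadd45g lie 25.8-fold apart in controls.

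The promoters of Sstr2, Gadd45g and Eomes are shown because Sstr2 and Gadd45g were the 2 markers called in both limma and edgeR, and Eomes is the defining marker. Of the 8 markers, 4 had entries in the RefSeq promoter table (GRCm38.p6), which holds 250 bases before and 50 after a transcription start. Each sequence reads 5′ to 3′ on the plus strand. Capitals mark matches, on either strand, to the E-box CANNTG (bound by bHLH factors), the TATA box TATAAA and the cyclic AMP response element TGACGTCA (bound by CREB family factors).
Sstr2, chr11:113619077-113619376: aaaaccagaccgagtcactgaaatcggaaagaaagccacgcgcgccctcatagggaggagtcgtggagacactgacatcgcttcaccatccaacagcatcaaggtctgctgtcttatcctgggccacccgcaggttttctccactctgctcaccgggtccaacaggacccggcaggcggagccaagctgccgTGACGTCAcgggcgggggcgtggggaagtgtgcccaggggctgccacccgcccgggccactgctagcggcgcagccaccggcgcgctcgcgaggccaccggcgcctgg
Gadd45g, chr13:51846425-51846724: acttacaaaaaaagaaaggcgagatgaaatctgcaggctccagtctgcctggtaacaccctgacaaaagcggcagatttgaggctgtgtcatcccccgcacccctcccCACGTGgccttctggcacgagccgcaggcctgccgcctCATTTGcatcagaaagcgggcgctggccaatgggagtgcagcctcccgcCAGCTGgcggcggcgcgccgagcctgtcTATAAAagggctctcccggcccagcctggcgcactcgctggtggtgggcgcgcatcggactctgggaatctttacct
Eomes, chr9:118477939-118478238: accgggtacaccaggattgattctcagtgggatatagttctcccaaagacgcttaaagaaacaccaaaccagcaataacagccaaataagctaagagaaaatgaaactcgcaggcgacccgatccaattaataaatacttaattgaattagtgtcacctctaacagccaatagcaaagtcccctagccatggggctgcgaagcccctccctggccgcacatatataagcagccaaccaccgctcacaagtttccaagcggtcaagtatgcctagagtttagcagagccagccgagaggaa

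The Sstr2 window held 1 cyclic AMP response element, whose first base lay at position -58, where -1 is the base before the start. This motif was present in 1.79% of the 32851 promoter windows of the table. The Gadd45g window held a TATA box at position -27, a motif found in 13.6% of windows, and 3 E-boxes at positions -142, -104 and -55, a motif found in 72.3%. The Eomes window held no match to the 3 motifs as spelled above, and variant spellings of the TATA box were not searched. The GC content was 66.3% in the Sstr2 window, 62.3% in that of Gadd45g and 47.3% in that of Eomes, against a median of 52.7% over all windows.

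Eomes (ENSMUSG00000032446.14, chr9:118478212-118486132, plus strand, GRCm38) had 635 and 816 normalized counts in Ctcf-null 1 and 2, against 723 and 1071 in control 1 and 2. Each Ctcf-null library was below the control of its pair, but Ctcf-null 2 was above control 1, so the genotypes overlapped. The log2 fold change was -0.29 (SE 0.09, limma adjusted p = 0.042) with the authors' scaling and -0.23 (SE 0.09, edgeR adjusted p = 0.12) with TMM scaling. Pair 1 alone gave -0.19 and pair 2 alone -0.39. Counting error alone gave 95% intervals of -0.33 to -0.05 in pair 1 and -0.54 to -0.24 in pair 2 (exact binomial). These intervals do not cover the spread between embryos. The median of all tested genes was -0.07 on the authors' scaling, so Eomes lay 0.22 log2 units below it. Relative to that median, Sstr2 was at -1.50, Tmem158 at -0.87, Gadd45g at -0.31, Mfng at -0.17, Lrp8 at -0.16, Penk at -0.09 and Insm1 at 0.10. A lower level of a marker in whole tissue can come from fewer cells of a type or less RNA per cell, which cannot be told apart here.

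Insm1 (ENSMUSG00000068154.5, chr2:146221921-146225020, plus strand) was at 281 and 575 normalized counts in Ctcf-null 1 and 2, and at 294 and 528 in control 1 and 2. Pair 1 gave -0.06 and pair 2 gave 0.12 on the log2 scale. The counting intervals, -0.27 to 0.15 and -0.07 to 0.32, included 0 in both pairs. The log2 fold change was 0.03 (SE 0.11, limma adjusted p = 0.90), and it was above 0 in all 10 fits. Insm1 recruits a corepressor complex to DNA, and 2 of 6 genes of its paralog and partners fell: the histone demethylase gene Kdm1a at -0.35 (SE 0.08) and the deacetylase gene Hdac1 at -0.40 (SE 0.07). Rcor1 at -0.14, Rcor2 at -0.11 and Hdac2 at -0.15 did not pass, nor did the paralog Insm2, which had 12.7 and 30.4 normalized counts in Ctcf-null libraries and 13.3 and 27.5 in controls.

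Sstr2 (ENSMUSG00000047904.6, chr11:113619342-113626028, plus strand) encodes a G protein-coupled receptor for the peptide somatostatin. It had 438 and 1373 normalized counts in Ctcf-null 1 and 2, against 1430.2 and 3715 in control 1 and 2. It was the one marker of the 8 with both Ctcf-null libraries below both controls, a pattern found in 7.64% of tested genes. The log2 fold change was -1.57 (SE 0.08, limma adjusted p = 8.0e-11), with -1.71 in pair 1 and -1.44 in pair 2. The counting intervals, -1.84 to -1.57 in pair 1 and -1.54 to -1.34 in pair 2, did not overlap. In edgeR it was -1.51 (SE 0.08, adjusted p = 8.2e-13) and in DESeq2 -1.54 (SE 0.13, adjusted p = 1.9e-28). Of the 22158 tested genes it had the fold change ranked 109th from the lowest. The gene overlaps Slc39a11 on the opposite strand, and the counts may not separate the strands. Slc39a11 had 99.7 and 874 normalized counts in Ctcf-null libraries, against 118 and 1022 in controls, and did not pass (log2 fold change -0.24, limma adjusted p = 0.20).

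Of the other somatostatin genes, 2 of 4 tested fell and 0 rose. The ligand gene Sst, expressed in interneurons, was at 146 and 679 normalized counts in Ctcf-null 1 and 2, against 1492 and 5445 in control 1 and 2 (log2 fold change -3.17, SE 0.09, limma adjusted p = 1.8e-14). The receptor gene Sstr1 had 18.4 and 27.9 against 20.5 and 209 in controls, and fell (limma adjusted p = 0.018). Its fall came from pair 2, with a log2 fold change of -0.15 in pair 1 and -2.86 in pair 2. Sstr3 was at -0.13 and Cort, a related ligand gene, at 0.34, and neither passed. Sstr4 and Sstr5 were left out of the test for low counts.

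**Figure D2:**
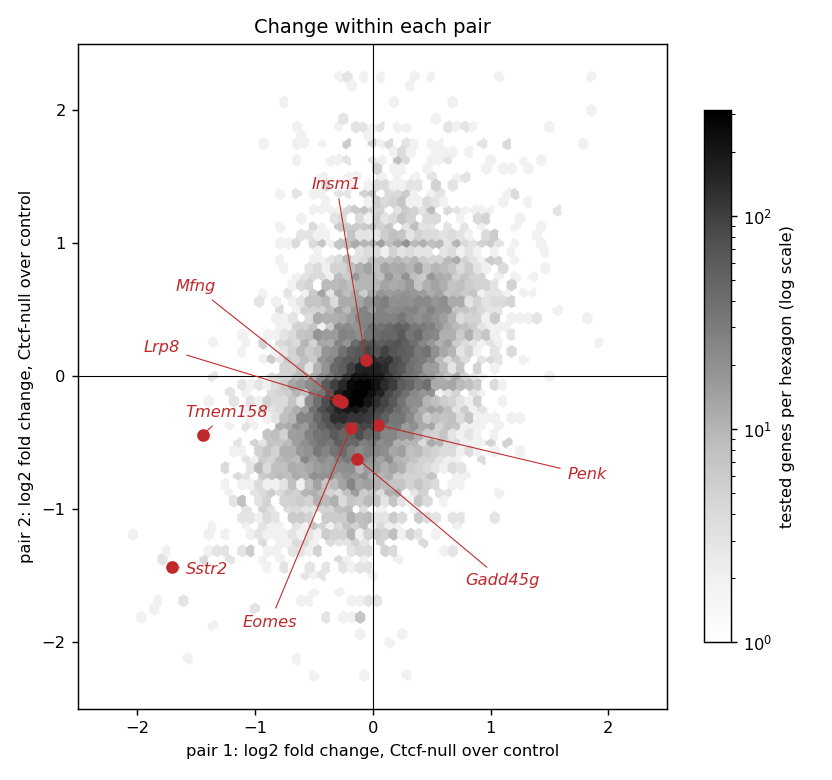
Log2 fold change (Ctcf-null over control) in pair 1 (x axis) and pair 2 (y axis); hexagons count 22033 tested genes, the 125 genes beyond 2.5 on either axis are not drawn, and red points are the 8 markers. Sstr2 lies apart at the lower left, and the markers other than Sstr2 and Tmem158 lie among the bulk of genes.

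Gadd45g (ENSMUSG00000021453.2, chr13:51846678-51848468, plus strand) encodes a small protein, induced by stress, that slows the cell cycle. It had 339 and 6238 normalized counts in Ctcf-null 1 and 2, against 372 and 9590 in control 1 and 2. Within each pair the Ctcf-null library was lower, and the difference lay mainly in pair 2. The log2 fold change was -0.38 (SE 0.09, limma adjusted p = 0.011), with -0.13 in pair 1 and -0.62 in pair 2. In edgeR the adjusted p was 0.0052, while upper-quartile scaling in limma gave 0.075 and DESeq2 gave 0.094. The counting interval of pair 1 was -0.32 to 0.06 and included 0. The level differed between pairs 18.4-fold in Ctcf-null libraries and 25.8-fold in controls, and 99.7% of tested genes had a smaller rise of pair 2 over pair 1. The paralogs Gadd45a, at -0.21, and Gadd45b, at 0.00, did not pass, nor did Gadd45gip1, which encodes a binding partner, at -0.20.

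Mfng (ENSMUSG00000018169.12, chr15:78755882-78773475, minus strand) encodes manic fringe, a glycosyltransferase that modifies Notch receptors. It had 1341 and 2627 normalized counts in Ctcf-null 1 and 2, against 1647 and 2964 in control 1 and 2. The fall of 0.24 on the log2 scale was small (SE 0.07, limma adjusted p = 0.040), with -0.30 in pair 1 and -0.17 in pair 2, and the genotypes overlapped. In edgeR it did not pass (adjusted p = 0.13). The counting intervals, -0.39 to -0.20 and -0.26 to -0.09, left out 0 in both pairs.

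Of 14 other genes of the fringe and Notch pathway, 4 fell and 0 rose. The effector genes Hes5 and Hey1, which Notch activates in radial glia, had -0.57 (SE 0.10) and -0.46 (SE 0.11). Rfng, another fringe, had -0.45 (SE 0.13), almost all of it in pair 2, with -0.02 in pair 1 and -0.89 in pair 2. The receptor gene Notch1 was at -0.33 (limma adjusted p = 0.046) and did not pass in edgeR (adjusted p = 0.050). The ligand genes Dll1 at -0.24, Dll3 at -0.35 and Jag1 at -0.05 did not pass, nor did Lfng at -0.26. Larger differences that did not pass were those of the ligand genes Jag2, at -0.71 (limma adjusted p = 0.077), and Dll4, at -0.54 (limma adjusted p = 0.13), both lower in both pairs.

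Penk (ENSMUSG00000045573.9, chr4:4133531-4138819, minus strand) encodes the precursor of the enkephalin opioid peptides. It was at 208 and 414 normalized counts in Ctcf-null 1 and 2, and at 202 and 534 in control 1 and 2. Pair 1 was near 0, at 0.04, and pair 2 was at -0.37. The combined log2 fold change was -0.16 (SE 0.13, limma adjusted p = 0.45). Of 6 other opioid genes tested, 1 rose and 0 fell. That gene was Pdyn, the prodynorphin precursor, at 134 and 131 normalized counts in Ctcf-null libraries, against 66.7 and 71.3 in controls (log2 fold change 0.94, SE 0.18, limma adjusted p = 0.0016). Both Ctcf-null libraries were above both controls. The receptor gene Oprl1 was at 0.23 and passed in edgeR (adjusted p = 0.019) but not in limma (adjusted p = 0.056).

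Tmem158 (ENSMUSG00000054871.4, chr9:123259053-123260764, minus strand), a membrane protein gene first described in human cells as induced by Ras signalling, was the lowest of the 8. It had 13 and 59 reads in Ctcf-null 1 and 2, against 30 and 78 in control 1 and 2, or 9.19 and 71.7 normalized counts against 26.7 and 97.6. Both pairs were lower, but the size of the fall rested on pair 1, with -1.44 there and -0.44 in pair 2. Over both pairs the log2 fold change was -0.94 (SE 0.29, limma adjusted p = 0.038) and -0.70 in edgeR (SE 0.28, adjusted p = 0.11). The counting interval was -2.60 to -0.56 in pair 1 and -0.96 to 0.06 in pair 2. The value of -0.44 in pair 2 could thus not be told from 0 at this depth.

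Lrp8 (ENSMUSG00000028613.14, chr4:107802261-107876840, plus strand) encodes apolipoprotein E receptor 2, which receives the reelin signal that guides migrating neurons. It had 2080 and 1315 normalized counts in Ctcf-null 1 and 2, against 2496 and 1506 in control 1 and 2. Of the 8 markers it was the one with higher levels in pair 1 than in pair 2. Within pairs the Ctcf-null library was lower, by 0.26 in pair 1 and 0.20 in pair 2 on the log2 scale. The combined fall of 0.23 had an SE of 0.08 (limma adjusted p = 0.048), and in edgeR the adjusted p was 0.15. Of 8 other reelin pathway genes, Reln, the ligand gene, rose by 0.26 (SE 0.08, limma adjusted p = 0.044), with 2068 and 711 normalized counts in Ctcf-null libraries and 1828 and 558 in controls. The second receptor gene Vldlr was at -0.02 and the adaptor gene Dab1 at -0.13, and neither passed.

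**Figure D3:**
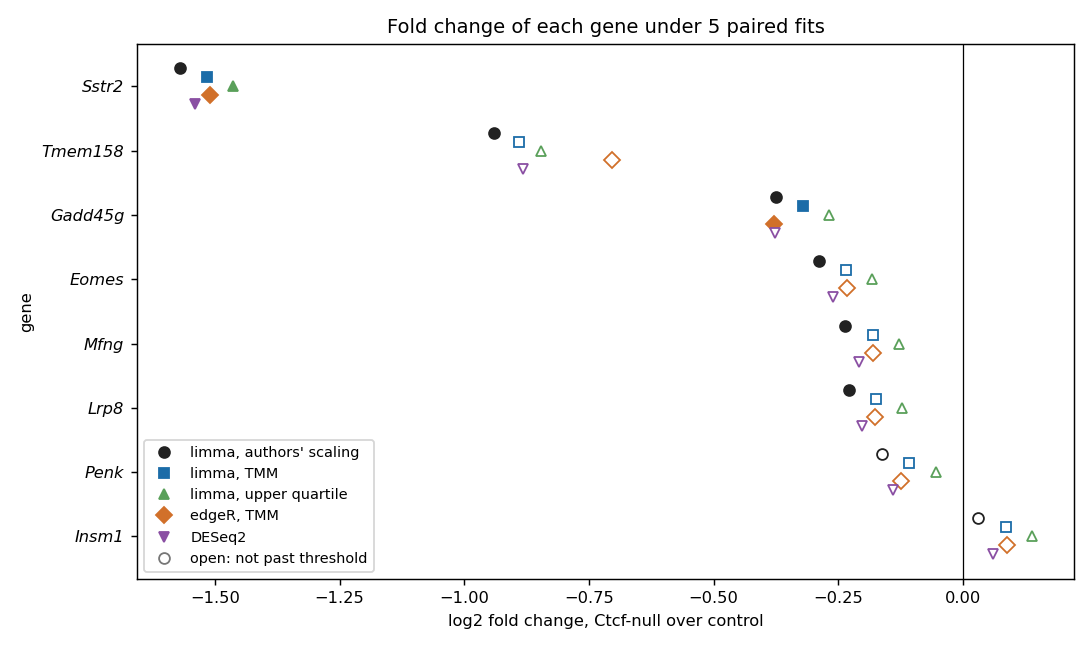
Log2 fold change (Ctcf-null over control) of the 8 markers under 5 fits with the pair block; filled symbols are past the adjusted p of 0.05 and open ones are not. Sstr2 is filled in all 5 fits, Gadd45g in 3, Eomes, Mfng, Lrp8 and Tmem158 with the authors' scaling alone, and Insm1 and Penk in none.

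Per kilobase of annotated exon, the markers changed order between genotypes at the top of the range. In control libraries Sstr2 stood above Mfng, at 667 against 580.2 normalized counts per kilobase in control 1 and 1733 against 1044 in control 2. In Ctcf-null libraries it stood below Mfng, at 204 against 472 in Ctcf-null 1 and 641 against 925 in Ctcf-null 2. Tmem158 was lowest in every library, at 5.37 and 41.9 in Ctcf-null libraries and 15.6 and 57.0 in controls. Eomes, Insm1, Penk and Lrp8 lay between 90.8 and 254 in Ctcf-null libraries and between 94.7 and 327 in controls, and Insm1 was below Eomes and Penk in all 4 libraries. Lrp8 stood above these 3 in both libraries of pair 1 and below them in both of pair 2, and the order of Eomes and Penk also differed between pairs. Gadd45g was among the top 3 in pair 1, at 289 in Ctcf-null 1 and 317 in control 1, and first in pair 2, at 5318 and 8175.

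Ratios within a library do not depend on the scaling between libraries. The ratio of Sstr2 to Eomes was 0.689 and 1.68 in Ctcf-null 1 and 2, against 1.98 and 3.47 in control 1 and 2. It was thus 0.349 times the control value in pair 1 and 0.485 times in pair 2. The ratio of Neurod1, a bHLH gene of the step from intermediate progenitor to neuron, to Eomes was 1.70 and 1.48 against 5.21 and 3.26, or 0.326 and 0.454 times the control value. The ratio of Insm1 to Eomes was 0.443 and 0.704 against 0.406 and 0.493, higher in the Ctcf-null library of each pair. It was 1.09 times the control value in pair 1 and 1.43 times in pair 2. The counting error of the ratios was not computed. The ratio of Mfng to Eomes was 2.11 and 3.22 against 2.28 and 2.77, lower in pair 1 and higher in pair 2. A ratio shows unequal change of both genes and not which of them changed.

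**Figure D4:**
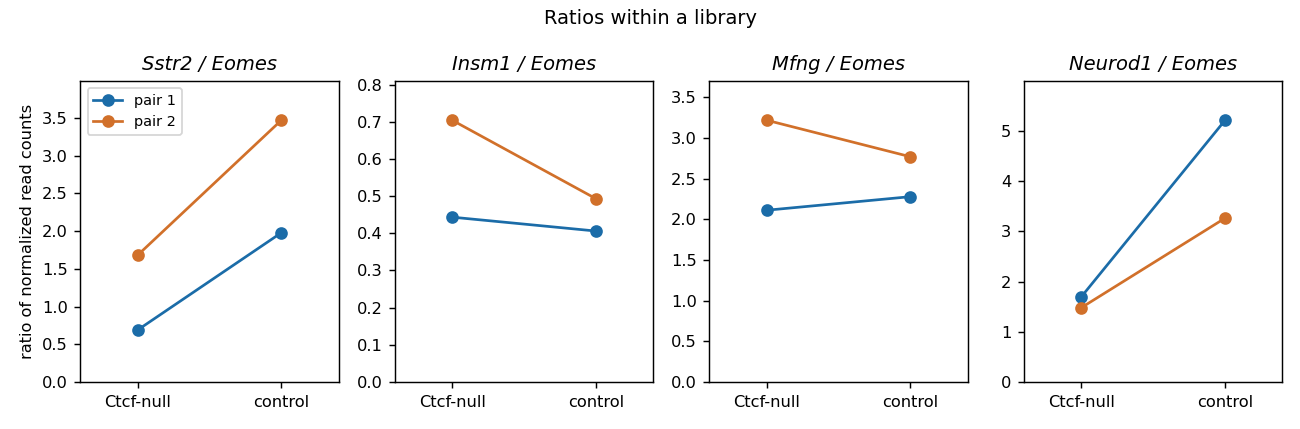
Ratio of the normalized read counts of 4 genes to Eomes in the same library, for the Ctcf-null (left) and control (right) library of pair 1 (blue) and pair 2 (orange); the y axes start at 0. The Sstr2 and Neurod1 ratios are lower, and the Insm1 ratio higher, in the Ctcf-null library of each pair. The Insm1 ratio is 1.09 times the control value in pair 1 and 1.43 times in pair 2.

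By the distance between profiles of log2 values centred per gene over the 4 libraries, the genes most like Eomes among 12550 genes with a mean of at least 100 were Marf1, Gjc1 and Camta1 (distances 0.023, 0.024 and 0.036). Marf1 had 457 and 600 normalized counts in Ctcf-null libraries and 528 and 782 in controls. The distance covers the difference between pairs as well as that between genotypes. Of the other markers with a mean above that bound, Mfng was the nearest, at 0.48 and ranked 3117th, and Gadd45g the farthest, at 3.98. The level of Gadd45g differed between pairs by 4.44 on the log2 scale and that of Eomes by 0.46. Their log2 fold changes were -0.38 and -0.29. Shared regulation of the genes was not tested.

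Among 16 other genes of cortical intermediate progenitors, 15 were tested, with a median log2 fold change of -0.27. Of these 7 fell and 1 rose, where 10.1% of all tested genes fell and 3.67% rose. The median of the 8 markers was -0.26 and that of all tested genes -0.07. The 6 bHLH genes on this list all fell: Neurog1 at -1.89, Neurod1 at -1.67, Nhlh1 at -1.27, Neurod4 at -1.24, Neurog2 at -0.68 and Hes6 at -0.27. All 6 also fell in edgeR, and 4 of them in DESeq2. Neurog1 and Hes6 did not pass there (DESeq2 adjusted p = 0.062 and 0.30). Neurog1 had few reads, 2 and 16 in Ctcf-null 1 and 2, against 7 and 74 in control 1 and 2. The log2 fold change of Hes6 was -0.10 in pair 1 and -0.44 in pair 2. Of the 9 tested genes that are not bHLH factors, 1 fell and 1 rose. Their median was -0.11, near that of all tested genes, and the median of the 6 bHLH genes was -1.25. The antiproliferative gene Btg2 had 2369 and 2504 normalized counts in Ctcf-null libraries, against 3979 and 3871 in controls (log2 fold change -0.69, SE 0.07, limma adjusted p = 8.2e-07). Unc5d, a netrin receptor gene whose transcript marks the subventricular zone, had 840.04 and 643 against 536 and 457 (log2 fold change 0.57, SE 0.10, limma adjusted p = 0.00043). Rnd2 at -0.11, Cux2 at -0.12, Cxcl12 at -0.03 and Elavl2 at -0.07 did not pass. The list was chosen with earlier results of these data known, and its counts are a description.

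The T-box gene Tbr1, which follows Eomes as cells become neurons, was at 605 and 1027 normalized counts in Ctcf-null libraries and 666 and 1252 in controls, and did not pass (log2 fold change -0.21, limma adjusted p = 0.13). Of the 10 excitatory neuron markers, 6 fell and 0 rose, with a median of -0.35. Of the 12 radial glia markers, 4 fell and 0 rose, with a median of -0.15. Among all tested genes 10.1% fell and 3.67% rose. In edgeR (7.13% and 4.80% of all tested genes) 6 excitatory neuron markers fell and 0 rose, and for radial glia 3 fell and 1 rose. The 1 that rose was Pax6, at 0.26 (edgeR adjusted p = 0.020), which was at 0.21 in limma and did not pass (adjusted p = 0.071).

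Markers of other cells and states moved in the same libraries. In the list for the ventral telencephalon and interneurons, where Insm1, Gadd45g and Penk are also expressed, 7 of 11 genes fell, with a median of -0.62. The summed level of this list was 0.596 times that of the control in pair 1 and 0.468 times in pair 2. That sum includes Sst, at 146 and 679 normalized counts in Ctcf-null libraries, against 1492 and 5445 in controls. A sum without Sst was not made. The summed level of the 8 markers was 0.742 and 0.671 times that of the control, and 0.845 and 0.868 times without Sstr2 and Gadd45g. Of the 10 mitosis genes 8 fell, with a median of -0.30 (5 in edgeR), and the summed level was 0.780 and 0.816 times that of the control. Of the 8 microglia genes 1 rose, at a summed ratio of 1.24 and 1.21, and of the 6 choroid plexus genes 2 rose, at 1.31 and 1.44. Most of the choroid plexus sum was Ttr, and without it the ratios were 1.22 and 1.18. Endothelial genes stood at 0.846 and 0.908, where 1 of 6 fell (0 in edgeR), and red blood cell genes at 0.688 and 1.09, with 0 of 7 called. The part of these cells and states in the values of the 8 markers was not tested.

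**Figure D5:**
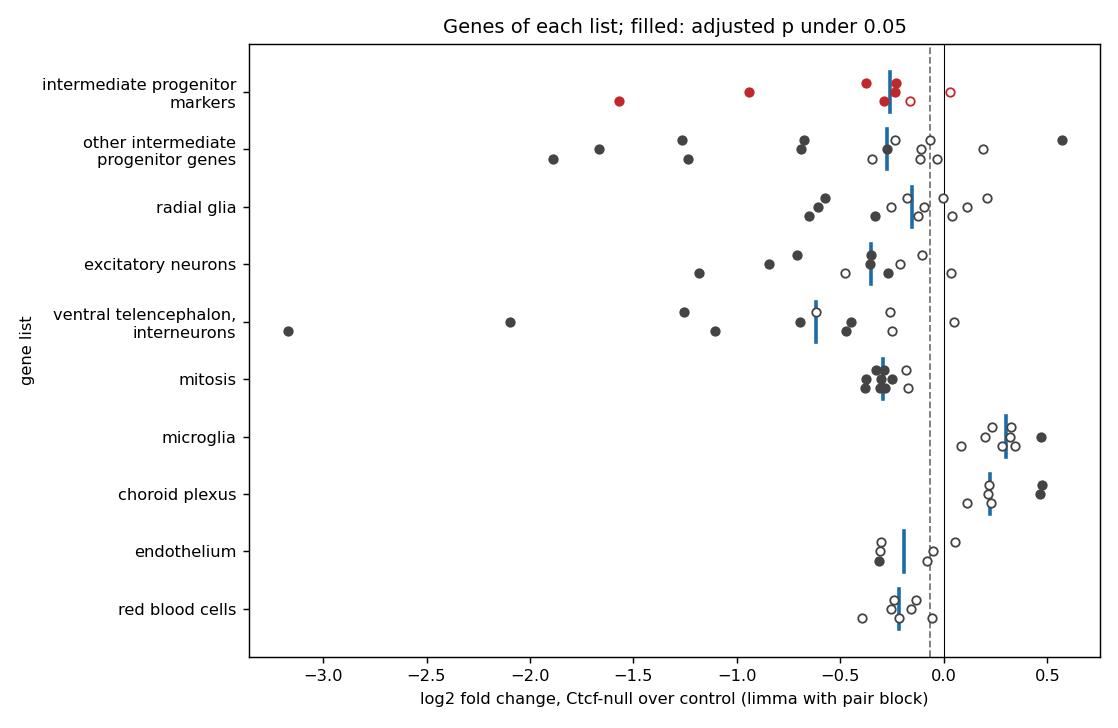
Log2 fold change (Ctcf-null over control, limma with the pair block, authors' scaling) of each tested gene in 10 lists; filled points are past the adjusted p of 0.05, blue bars are list medians and the dashed line is the median of all tested genes, -0.07. The 8 markers (red) have a median of -0.26, with Sstr2 farthest to the left.

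The 16 nearest tested genes on either side of the markers held 1 gene that fell and 1 that rose, with a median log2 fold change of 0.03. Ralgapa2, 14859 bases from Insm1, rose by 0.47 (SE 0.10, limma adjusted p = 0.0024), at 1020.4 and 545 normalized counts in Ctcf-null libraries, against 704 and 414 in controls. Gm11808, 159936 bases from Penk, fell by 0.22 (limma adjusted p = 0.027). Cog1, 23141 bases from Sstr2, was at 0.07 and did not pass. The antisense transcript RP24-257F22.3, which overlaps Eomes, had 8.49 and 12.2 normalized counts in Ctcf-null libraries and 9.78 and 31.3 in controls and did not pass, as was the case for Lrp8os2, which overlaps Lrp8.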

How the data were processed

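RNA of 4 libraries was made into cDNA with a Clontech SMART kit, per the labels' protocols. STAR 2.5.3, DESeq2 and mm10 are named in the submitters' processing notes. The counter, annotation release and strand setting are not stated in those notes or the labels. The authors deposited 1 table of normalized read counts (a signal, scaled per library and not divided by length) and log2 fold changes per pair. The authors' log2 values were not used for tests.

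Every nonzero value was a whole multiple of 1 step per library, within 0.006, and 100% of them gave whole reads. With normalized values in the table, limma 3.58.1 (R 4.3.3) was run on log2(value + 1) with a mean-variance trend and the pair as a block, on 22158 genes kept by filterByExpr (edgeR 4.0.16). Tests were two-sided with Benjamini-Hochberg adjustment over all tested genes and a threshold of 0.05. The fit has 1 residual degree of freedom and 18.1 prior degrees of freedom. Adding 1 before taking logs makes the fold changes of low genes too small. edgeR's quasi-likelihood test and DESeq2 1.42.0 were run on the recovered reads as alternatives, all with the block. Standard errors of edgeR are approximate, the fold change over the root of its F statistic. The scripts were tested on simulated data.

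The pairing comes from the submitters' design text and from the pair columns of the table. The 2 libraries of a pair deviated together from the means of their genotypes (r = 0.92 across genes). Positions and exon lengths come from GENCODE M21 (GRCm38), which held 99.1% of the gene identifiers. The text names all 8 markers, genes of lists of pathway partners and cell types, the 3 genes nearest to Eomes and the nearest tested neighbours. The markers and lists were chosen with earlier results of these data known. Intervals cover counting error only, and the libraries have no molecular identifiers in the labels.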

Additional observations from a re-analysis of the deposited data

How the results depend on the processing

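Without the pair block, limma called 0 genes, 0 of the 8 markers and 0 of the 16 other intermediate progenitor genes, where 170 genes had an unadjusted p under 0.05. The markers' standard errors were then 0.42 to 2.23, and their lowest unadjusted p was 0.13, for Sstr2. With the block, limma called 3041 genes (813 higher, 2228 lower) on the authors' scaling, 2328 with TMM factors and 2168 with upper-quartile factors. The count was 2643 in edgeR and 832 in DESeq2. Calls shared with limma on the authors' scaling were 2173 with TMM factors, 1730 with upper-quartile factors, 2306 in edgeR and all 832 in DESeq2. Higher genes made up 26.7% of the calls on the authors' scaling, 41.6% with TMM factors and 57.7% with upper-quartile factors, which moved the median of all genes by 0.11. Of the 8 markers, 6 were called on the authors' scaling, 2 with TMM factors, 2 in edgeR, 1 with upper-quartile factors and 1 in DESeq2. A pseudocount of 0.5 gave 3 called markers. The sign of each marker was the same in all 10 fits. Leaving out 1 pair gives a value with no test, so no count of calls, and a library without its partner adds nothing to a paired fit. With 1 pair left out, the log2 fold change ranged from -1.71 to -1.44 for Sstr2, from -0.62 to -0.13 for Gadd45g, from -0.39 to -0.19 for Eomes and from -1.44 to -0.44 for Tmem158. The sign turned for 2 markers that were not called, from -0.37 to 0.04 for Penk and from -0.06 to 0.12 for Insm1. For Insm1 the counting intervals included 0 in both pairs. Tmem158, with 13 to 78 reads, is limited by depth.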

Other observations

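The level of many genes differed between the pairs with the GC content of their longest annotated transcript. Over 22020 genes that share the same 4 libraries, GC content and the log2 difference of pair 2 over pair 1 had a Spearman's rho of 0.35. The median difference was 1.49 in the 10% of genes richest in GC and -0.48 in the 10% poorest. The GC content was 59.9% for Gadd45g, whose difference was 4.44, 63.8% for Tmem158 (2.33), 62.0% for Insm1 (0.94), 58.1% for Mfng (0.91), 53.9% for Eomes (0.46), 53.1% for Sstr2 (1.51), 52.7% for Penk (1.20) and 47.4% for Lrp8 (-0.70). Sstr2 and Penk had a lower GC content than Insm1 and Mfng and a larger difference. Gadd45g and Tmem158 had a higher GC content than Eomes, Sstr2, Penk and Lrp8, and larger differences. Lrp8 had the lowest GC content and the lowest difference. The log2 fold change of Ctcf-null over control had a median of -0.14 in the richest 10% and 0.01 in the poorest 10% (rho -0.15 over all genes). The part of GC content in the values of the markers was not tested.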
